A study of Bos taurus with 2 samples.

Results

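The glycolysis and hypoxia response genes described here are 32 genes chosen by name. They comprise 14 glycolytic enzymes, 4 genes of lactate and pyruvate handling, 3 genes of oxygen sensing and 11 other genes that low oxygen induces. They are represented by 103 of the 43653 gene probes of an Agilent bovine oligonucleotide array, matched by the gene symbol in the files or by the current symbol of the RefSeq entry of the probe, with pyruvate kinase PKM2 listed as PKM. Total RNA of mammary gland tissue from female Chinese Holstein cows was labelled with Cy3 and hybridized to 1 array titled mastitis and 1 array titled normal, whose stage is given as healthy. By the series' design text, the tissue came from adult cows in late lactation, 3 with and 3 without mastitis, taken after slaughter. The cows behind either array are not named in the sources used here. By the methods, only animals with mastitis had been given antibiotics, and the effects of disease and of treatment therefore cannot be told apart. None of the cows had been injected with recombinant bovine somatotropin. With 1 array per condition there is no replicate check, no p-value is given, and the number of arrays limits the precision of every value.

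Glycolysis splits glucose into pyruvate and yields ATP without oxygen. When oxygen is scarce, lactate dehydrogenase turns pyruvate into lactate and so restores the NAD+ that glycolysis needs. Pyruvate dehydrogenase kinase meanwhile switches off pyruvate dehydrogenase, which oxidizes pyruvate in the mitochondria. The transcription factor HIF-1 is the main switch. In the presence of oxygen its alpha subunit is hydroxylated by the EGLN prolyl hydroxylases and degraded, and in hypoxia it accumulates and induces most glycolytic enzymes together with genes of angiogenesis, mitophagy, pH control and collagen maturation. Immune cells also raise glycolysis when activated, and the lactating gland draws on the same glucose for lactose.

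The signal of a spot was its median Cy3 intensity minus the mean of the negative controls (net signal, in scanner units), and a probe counted as measured when it was clearly above the negative controls and found by the scanner software on both arrays. All 32 genes had a measured probe, 93 of the 103 probes in all. Net signals were divided by the 75th percentile of each array, 210 for mastitis and 128 for normal, so that equal scaled signals correspond to net signals 1.64 times as large on the mastitis array. For each gene, the log2 ratio of mastitis over normal was averaged over the measured probes. The SD over probes given beside it is technical and does not cover differences between cows. Its pooled value was 0.45 over the probes of all genes and 0.16 over replicate spots of 41 probes. CSN3 (kappa-casein), a marker of mammary secretory tissue, was well above background on both arrays. It was nevertheless 9.78-fold lower on the mastitis array (log2 ratio -3.29), the least reduced of 6 measured milk protein genes. The median net signal of CSN3 was 60840 on the normal array. On that array 20 gene probes had saturated pixels, so the fold of so bright a gene, and its rank, are uncertain.

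The members as a set were higher on the mastitis array than most other genes. They were chosen with earlier results of these data known, so the counts that follow are descriptions and no test of an excess. Their median log2 ratio was 0.40, against -0.15 for all 12244 measured genes, and 25 of the 32 lay above 0, as did 38.6% of all genes. At least 2-fold higher were 4 of the 32 members (ANKRD37, ADM, LDHA and PGK1), where 2.26% of all genes were. None of the members was at least 2-fold lower, where 9.14% of all genes were. At a 1.5-fold limit, 12 members were higher (background 7.65%) and 3 were lower (background 21.5%). Scaling shifts all ratios together: the median of all genes was 0.11 with spike-in scaling and 0.56 without scaling, and the members' median stood 0.55 above that of all genes under each of these scalings. The members at least 2-fold higher numbered 10 with spike-in scaling (background 4.87%) and 18 without scaling (background 20%), and those at least 2-fold lower 0 in both cases (backgrounds 5.65% and 2.64%). With the normexp background correction, LDHA and ADM remained at least 2-fold higher (background 0.776%) and no member was lower (background 3.25%). In bulk tissue, fewer cells of a type and less RNA per cell cannot be told apart.

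**Figure D1:**
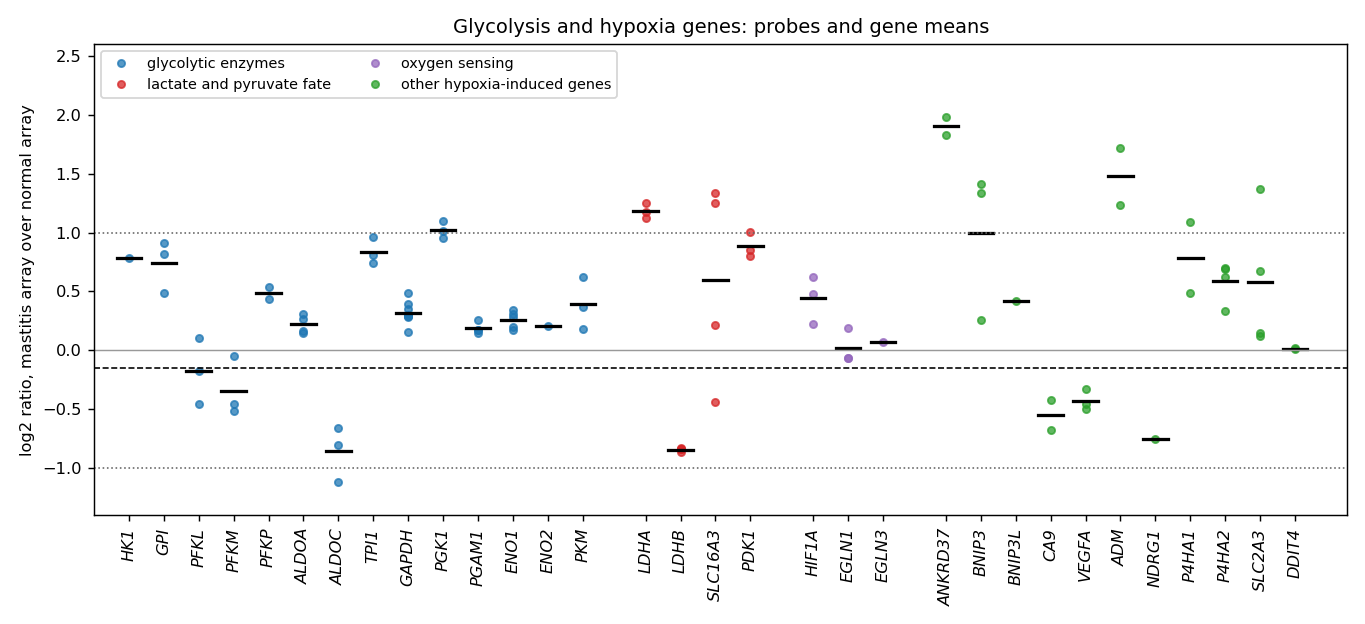
Vertical axis, log2 ratio (mastitis over normal) of the 32 genes, grouped by role. Points show measured probes and black bars the mean of each gene. A dashed line marks the all-gene median (-0.15) and dotted lines 2-fold. The bars of PGK1, LDHA, ANKRD37 and ADM lie above the upper dotted line, and those of LDHB, ALDOC and NDRG1 are the lowest.

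Among the 14 glycolytic enzymes, the ratios differed from step to step, with a median of 0.29 and 11 of 14 above 0 (38.6% of all genes). The upper part of the pathway began with HK1, the hexokinase that traps glucose as glucose 6-phosphate, whose only probe read 2456 in mastitis and 867 in normal tissue (log2 ratio 0.79). GPI, which converts glucose 6-phosphate to fructose 6-phosphate, read 3444, 84 and 53 with its 3 probes in mastitis and 1116, 29 and 23 in normal tissue. All 3 GPI probes were thus higher after scaling, with a log2 ratio of 0.74 (SD 0.22). The next step, the commitment to glycolysis, is run by 3 phosphofructokinase isoforms, and these did not share a sign. PFKP, the platelet type, had a log2 ratio of 0.49 (SD 0.07, 2 probes), or 0.21 with the normexp correction. PFKL, the liver type, read 1561, 103 and 48 in mastitis and 883, 71 and 40 in normal tissue. Its brightest probe was above 0 (0.11) and the others below (-0.18 and -0.45), with a mean of -0.17 (SD 0.28). PFKM, the muscle type, had -0.34 (SD 0.25, 3 measured of 6 probes). Each PFKP probe had a higher ratio than every measured probe of PFKL and PFKM (6 of 6 probe pairs in both cases). The signs of PFKL and PFKM rest on the scaling, since both were above 0 without scaling (0.54 and 0.37), and PFKL was so with spike-in scaling as well (0.09).

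The aldolases, which cleave fructose 1,6-bisphosphate, were opposite in sign. ALDOA, the muscle and general form, read 9464, 1432, 1103 and 584 in mastitis and 4810, 786, 599 and 288 in normal tissue (log2 ratio 0.22, SD 0.07). ALDOC, the brain form, read 385, 65 and 25 in mastitis and 509, 69 and 24 in normal tissue (log2 ratio -0.86, SD 0.24), the lowest ratio of all 32 members. Every ALDOA probe stood above every ALDOC probe (12 of 12 probe pairs), and the gene ratios differed 2.11-fold.

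The lower part of the pathway held the pair of enzymes with the highest ratios. TPI1, which interconverts the triose phosphates, read 9121, 1345 and 937 on the mastitis array against 3326, 467 and 293 on the normal array, a 1.79-fold difference (log2 ratio 0.84, SD 0.11). PGK1, the kinase of the ATP-forming step after GAPDH, read 1787, 655 and 175 against 539, 187 and 55. All 3 PGK1 probes lay close together, between 0.96 and 1.09, and the gene was 2.03-fold higher in mastitis (log2 ratio 1.02, SD 0.07). Its log2 ratio was 0.89 with the normexp correction. The enzymes around these steps differed little. GAPDH, often used as a reference gene, had a log2 ratio of 0.32 (SD 0.10) over 8 probes, of which the lowest was 0.15 and the highest 0.48. PGAM1, a mutase, had 0.19 (SD 0.05, 4 probes), and ENO1, the general enolase, had 0.26 (SD 0.07, 5 probes), so probes of these bright genes agreed closely on a small difference. ENO2, the neuronal enolase, had 0.20 from a single dim probe (net signals 51 and 27) and was below 0 with the normexp correction (-0.13). Pyruvate kinase PKM read 1141, 53 and 26 in mastitis and 452, 25 and 14 in normal tissue (log2 ratio 0.39, SD 0.22). With the normexp correction its value was 0.06. The PKM probe drawn from the M1-type transcript was not clearly above background on either array.

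The pair of lactate dehydrogenase subunits differed most among the 9 pairs of related members compared. LDHA encodes the M subunit, which favours lactate formation, and LDHB the H subunit, which prevails in tissues that oxidize lactate. LDHA read 1820, 1633 and 339 in mastitis and 466, 441 and 95 in normal tissue, a 2.27-fold difference after scaling (log2 ratio 1.18, SD 0.07). LDHB read 3563, 2688, 1513 and 1337 in mastitis and 3959, 2918, 1644 and 1453 in normal tissue, lower on the mastitis array already before scaling. Its 4 measured probes lay between -0.87 and -0.83, with a mean log2 ratio of -0.84 (SD 0.02), which is 1.79-fold lower on the mastitis array. The 2 genes thus differed 4.07-fold in their ratios, and every LDHA probe stood above every LDHB probe (12 of 12 probe pairs). A difference between ratios of the same arrays does not depend on the scaling factor, and the signs of both genes were kept without scaling (1.90 for LDHA and -0.13 for LDHB).

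PDK1, the kinase that switches off pyruvate dehydrogenase, had 3 dim probes, which read 163, 68 and 33 in mastitis and 57, 23 and 10 in normal tissue. They gave a log2 ratio of 0.89 (SD 0.11), which was 0.14 with the normexp correction, so the size of this difference depends on how the background of dim probes is treated. SLC16A3 encodes MCT4, the transporter that exports lactate from glycolytic cells. Its 4 probes disagreed: those reading 476 and 172 in mastitis (115 and 44 in normal tissue) had log2 ratios of 1.34 and 1.25, whereas those reading 42 and 17 (22 and 14 in normal tissue) had 0.22 and -0.43. The mean of 0.59 (SD 0.85) therefore describes no single probe, and restricted to net signals of at least 50 on both arrays, which leaves the brightest probe, the value was 1.34. The mean was 0.28 with the normexp correction.

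**Figure D2:**
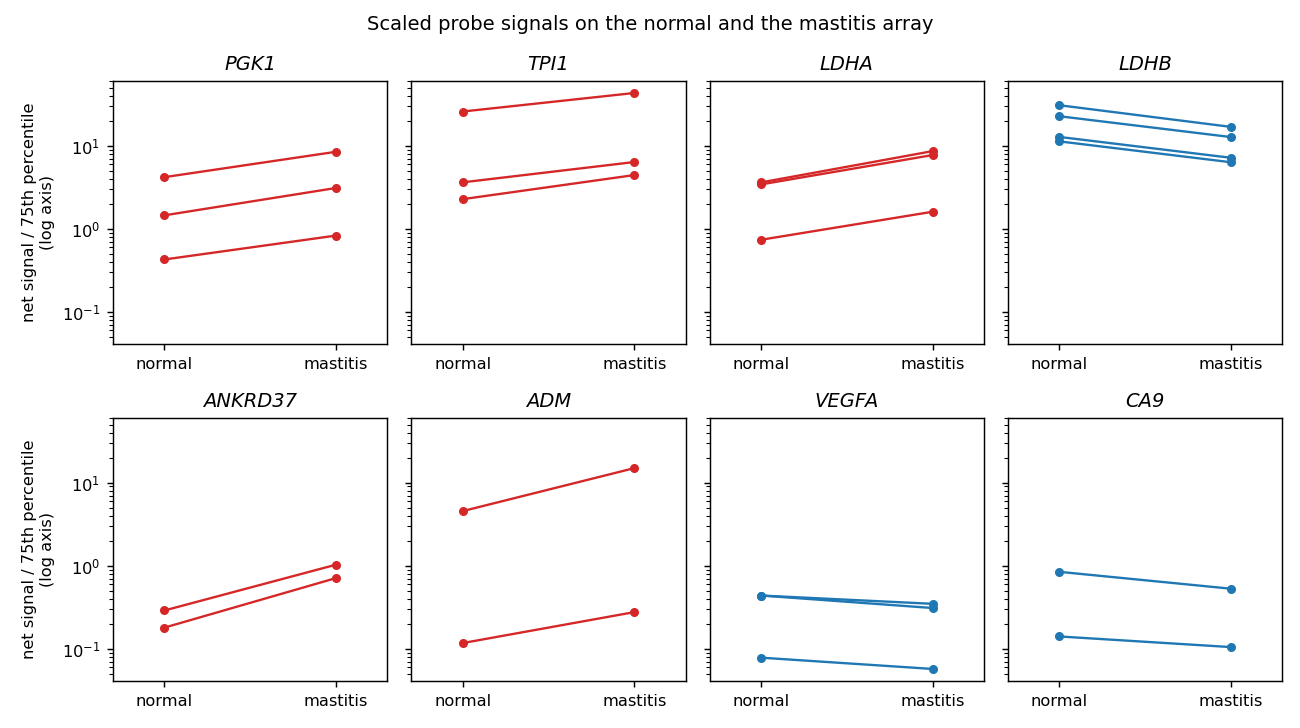
Scaled net signal (vertical log axis, net signal over the 75th percentile of the array) of every measured probe of 8 genes on the normal and the mastitis array, with a line for each probe. Red lines are higher and blue lines lower on the mastitis array. All probes of PGK1, TPI1, LDHA, ANKRD37 and ADM point up, and all probes of LDHB, VEGFA and CA9 point down.

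Of the 3 oxygen sensing genes, HIF1A was higher on the mastitis array with all its probes, while EGLN1 and EGLN3 were near 0. HIF1A, which encodes the oxygen-regulated alpha subunit of HIF-1, read 810, 592 and 101 in mastitis and 355, 309 and 40 in normal tissue, a 1.36-fold difference (log2 ratio 0.44, SD 0.20). HIF-1 alpha is controlled mainly at the protein level, which an array does not measure. EGLN1 read 747, 403 and 324 in mastitis and 476, 215 and 206 in normal tissue, with log2 ratios of -0.06, 0.19 and -0.06. The hydroxylase genes EGLN1 and EGLN3 had log2 ratios of 0.02 (SD 0.15, 3 probes) and 0.07 (1 probe, net signals 19 and 11). Neither sign is settled, because EGLN1 was at -0.06 with its brightest probe and EGLN3 at -0.29 with the normexp correction.

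The 11 other hypoxia-induced members spread more widely than the enzymes, from -0.75 to 1.91. Their median was 0.58, with 8 of 11 above 0 (38.6% of all genes). ANKRD37, an ankyrin repeat gene known as a direct HIF-1 target, had the highest ratio of all members. It read 216 and 149 in mastitis and 37 and 23 in normal tissue, a 3.75-fold difference (log2 ratio 1.91, SD 0.11). With the normexp correction the log2 ratio was 0.91, which is below 2-fold. ADM encodes adrenomedullin, a vasodilator peptide that hypoxia and inflammatory cytokines induce. Its probes read 3142 and 58 in mastitis and 582 and 15 in normal tissue, and the gene was 2.78-fold higher (log2 ratio 1.48, SD 0.34; 1.04 with the normexp correction).

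The mitophagy receptors BNIP3 and BNIP3L were both above 0. BNIP3 read 438, 319 and 135 in mastitis and 106, 163 and 31 in normal tissue. Of its log2 ratios, 1.33 and 1.41 lay close together and 0.25 stood apart, and their mean of 0.998 was just short of 2-fold (SD 0.65). BNIP3 was past 2-fold with quantile normalization (1.03) and with the brightest probe (1.33), and further below it at net signals of at least 50 (0.79) and with the normexp correction (0.64). BNIP3L, from a single probe, read 1433 and 655 (log2 ratio 0.42). The collagen prolyl hydroxylase subunits, which stabilize the collagen triple helix, were likewise higher, P4HA1 at 0.79 (SD 0.43, 2 measured probes) and P4HA2 at 0.59 (SD 0.17, 4 probes). With the normexp correction P4HA1 was at 0.50 and P4HA2 at 0.21. In P4HA1 the probe reading 465 and 133 had a log2 ratio of 1.09 and the probe reading 78 and 34 had 0.48. With its dimmest probe (net signals 2 and 3) let in, the P4HA1 value was 0.09.

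SLC2A3 encodes GLUT3, a glucose transporter of high affinity found in neurons and leukocytes. Its measured probes read 1513, 1398, 41 and 20 in mastitis and 358, 534, 23 and 11 in normal tissue, and their log2 ratios ran from 0.12 to 1.37 (mean 0.58, SD 0.58). All 4 were above 0, but the size of the difference varied widely between them. DDIT4, a stress-induced inhibitor of mTORC1, did not differ visibly between the arrays (log2 ratio 0.01, SD 0.01, 2 probes; net signals 1941 and 688 against 1170 and 417).

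Not every textbook target of HIF-1 was higher. VEGFA, the main angiogenic growth factor, read 73, 65 and 12 in mastitis and 56, 56 and 10 in normal tissue, a log2 ratio of -0.43 (SD 0.09). CA9, a carbonic anhydrase of the cell surface and a common hypoxia marker, read 111 and 22 against 108 and 18 (log2 ratio -0.55, SD 0.18), and its other probe was not clearly above background on either array. NDRG1, a gene of stress and differentiation, read 3733 in mastitis and 3827 in normal tissue with its only probe (log2 ratio -0.75). VEGFA and CA9 turned above 0 without scaling (0.29 and 0.16), while NDRG1 stayed at -0.04.

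Ratios on these arrays depend somewhat on the signal, so each member was also set beside the genes of similar brightness, those within 0.5 on the log2 scale of its mean net signal. The medians of these neighbouring genes ranged from -0.49 near the dim EGLN3 to -0.04 near ADM, and 25 of the 32 members lay above the median of their own neighbours. At the bright end the neighbours of LDHB had a median of -0.31 (277 genes) and those of NDRG1 -0.41 (133 genes), so that LDHB stood 0.53 and NDRG1 0.34 below genes of like signal. With quantile normalization, which levels such a trend, LDHB was at -0.57 and NDRG1 at -0.35. LDHA, PGK1, ADM and ANKRD37 stood 1.26, 1.07, 1.52 and 1.97 above their neighbours. None of the member probes had a saturated pixel on either array. Probes of a member agreed well in most cases: of the 27 members with more than 1 measured probe, 24 had all probes on the same side of 0, and the median SD over probes was 0.15. The exceptions were PFKL, SLC16A3 and EGLN1. Among other related pairs, ENO1 and ENO2 differed by 0.06 on the log2 scale, P4HA1 and P4HA2 by 0.20 and BNIP3 and BNIP3L by 0.58, and in none of these did every probe of the first gene stand above every probe of the second (3 of 5, 5 of 8 and 2 of 3 probe pairs). The probe that was brightest on the mastitis array had a higher ratio than the one dimmest there in 15 of the 27. The widest gaps by this ranking were in SLC16A3 (1.77) and SLC2A3 (1.22). Ranking by the mean of both arrays, as the brightest-probe setting does, takes the SLC2A3 probe at 0.67 instead of the one at 1.37.

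**Figure D3:**
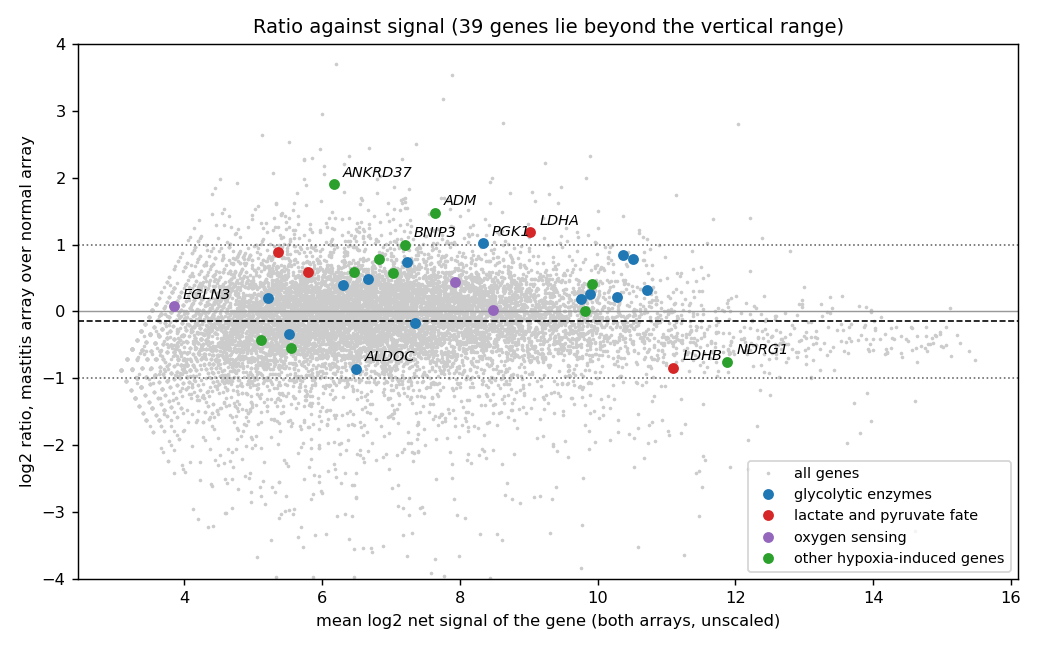
Vertical axis, log2 ratio (mastitis over normal) of each gene, against its mean log2 net signal (horizontal axis, both arrays, unscaled). Grey points are all 12244 genes, of which 39 lie beyond the vertical range, and coloured points are the 32 members by role. A dashed line marks the all-gene median (-0.15) and dotted lines 2-fold. LDHB and NDRG1 lie at the bright end, where the grey cloud itself dips below the dashed line.

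The other genes of these pathways were taken from textbook lists and did not share the members' position as a whole. These lists were also chosen with earlier results of these data known, so their counts are descriptions. Of 107 such genes, 99 had a probe and 82 were measured. At least 2-fold higher were 4 of them (background 2.26%) and at least 2-fold lower 11 (background 9.14%), with a median log2 ratio of -0.18. Spike-in scaling gave 7 higher and 8 lower (backgrounds 4.87% and 5.65%), the normexp correction 1 and 6 (0.776% and 3.25%) and no scaling 21 and 4 (20% and 2.64%), a shift of balance that all genes shared. With the normexp correction none of the 4 genes named as higher (LOX, AK4, PFKFB3 and RPIA) kept the call, and the gene counted was HMOX1. The list nearest to the members was that of other hypoxia-induced genes. Its median was 0.30 over 28 measured genes, with 21 of them above 0 (38.6% of all genes). LOX, the lysyl oxidase that cross-links collagen, read 220 in mastitis and 47 in normal tissue from a single probe (log2 ratio 1.51; 0.89 with the normexp correction), and AK4, an adenylate kinase of mitochondria, read 44 and 11 (1.29, but 0.04 with the normexp correction). HMOX1, haem oxygenase, read 3062 and 975 (0.94; 1.05 with the normexp correction). LOXL2, of the lysyl oxidase family, was just past 2-fold in the other direction (-1.001, SD 0.30, 3 probes), and was at -0.62 with the normexp correction. Of the other oxygen sensing genes, 12 were measured, none was at least 2-fold higher, and the median was -0.05 (0.22 with spike-in scaling). The only gene at least 2-fold lower was ARNT2, a partner of HIF alpha subunits, from a dim probe (net signals 9 and 11), while another of its probes read 44 in mastitis and was not clearly above background in normal tissue. EPAS1, which encodes HIF-2 alpha, had a mean of -0.45 (SD 0.65, 2 measured probes), or -0.16 with the normexp correction. Its bright probe (net signals 2142 and 1295) was at 0.01 and its dim probe (14 and 16) at -0.91, so the mean describes neither.

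Beside the glycolytic members, the remaining isoenzymes and regulators had a median of -0.35 over 12 measured genes (0.36 without scaling). PFKFB3, the enzyme that makes the phosphofructokinase activator fructose 2,6-bisphosphate, is also a hypoxia target and was 1.03 higher on the log2 scale, with probes at 1.54, 1.57 and -0.03 (SD 0.91), or 0.67 with the normexp correction. GAPDHS, the GAPDH of sperm, was at 0.31 from a bright probe (net signals 3829 and 1883), while its other probe was not clearly above background on the mastitis array, and whether the bright probe also binds GAPDH transcripts was not tested. The other glucose and lactate transporters had a median of -0.71 over 10 measured genes. None of them was above 0, where 38.6% of all genes were. With spike-in scaling 2 were above 0 and without scaling 5, at medians of all genes of 0.11 and 0.56. The probes of SLC2A4 disagreed widely, at 0.85, 0.74 and -3.88 (mean -0.76, SD 2.70). With the median over probes, 1 gene of this list was above 0 and the list median was -0.55. SLC16A1, which encodes the lactate transporter MCT1, read 40, 40 and 25 in mastitis and 108, 96 and 53 in normal tissue (log2 ratio -1.97, SD 0.17), against 0.59 for its relative SLC16A3. With the normexp correction SLC16A1 was at -1.14. SLC2A8, an intracellular glucose transporter, was at -1.51 (SD 0.36, 2 probes), or -0.88 and so short of 2-fold with the normexp correction. SLC2A1, the GLUT1 transporter and itself a hypoxia target, was at -0.40 (SD 0.16, 2 measured probes).

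On the oxidative side, the genes of pyruvate entry into mitochondria and of pyruvate oxidation there had a median of -0.48 over 9 measured genes (0.24 without scaling). Both subunits of the mitochondrial pyruvate carrier were lower by at least 2-fold in mastitis, MPC1 at -1.34 (net signals 1420 and 2189) and MPC2 at -1.49 (553 and 947), each from a single measured probe. They were the only 2 of the 9 past that limit (background 9.14%). Without scaling no gene of the list was at least 2-fold lower (background 2.64%). Among the kinases that act beside PDK1 on pyruvate dehydrogenase, PDK3 was at 0.53 (SD 0.27, 2 probes), PDK2 at -0.69 (SD 0.68, 2 probes) and PDK4 at -0.62 (SD 0.27, 8 probes). The PDK2 probe reading 578 in mastitis and 407 in normal tissue was at -0.21, and the dim one (8 and 11) at -1.17. The steps that gluconeogenesis, the reverse pathway, does not share with glycolysis had the lowest median, -1.18 (-0.46 without scaling). Of 6 measured genes, 4 were at least 2-fold lower (background 9.14%), and G6PC1 was not clearly above background on either array. With the normexp correction or without scaling, FBP1 and PCK2 kept that call and PC and FBP2 did not. FBP1, fructose bisphosphatase, read 208 and 67 in mastitis and 1025 and 369 in normal tissue (log2 ratio -3.10, SD 0.11). PCK2, the mitochondrial form of PEP carboxykinase, was at -1.88 (SD 0.07, 2 probes), PC, pyruvate carboxylase, at -1.27 (SD 0.28, 2 measured probes) and FBP2, the muscle fructose bisphosphatase, at -1.08 (1 measured probe). The pentose phosphate pathway, which branches off at glucose 6-phosphate, had a median of -0.46 over 7 measured genes (0.26 without scaling), with RPIA, an isomerase of that pathway, alone at least 2-fold higher (1.31, 1 probe; 0.82 with the normexp correction).

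**Figure D4:**
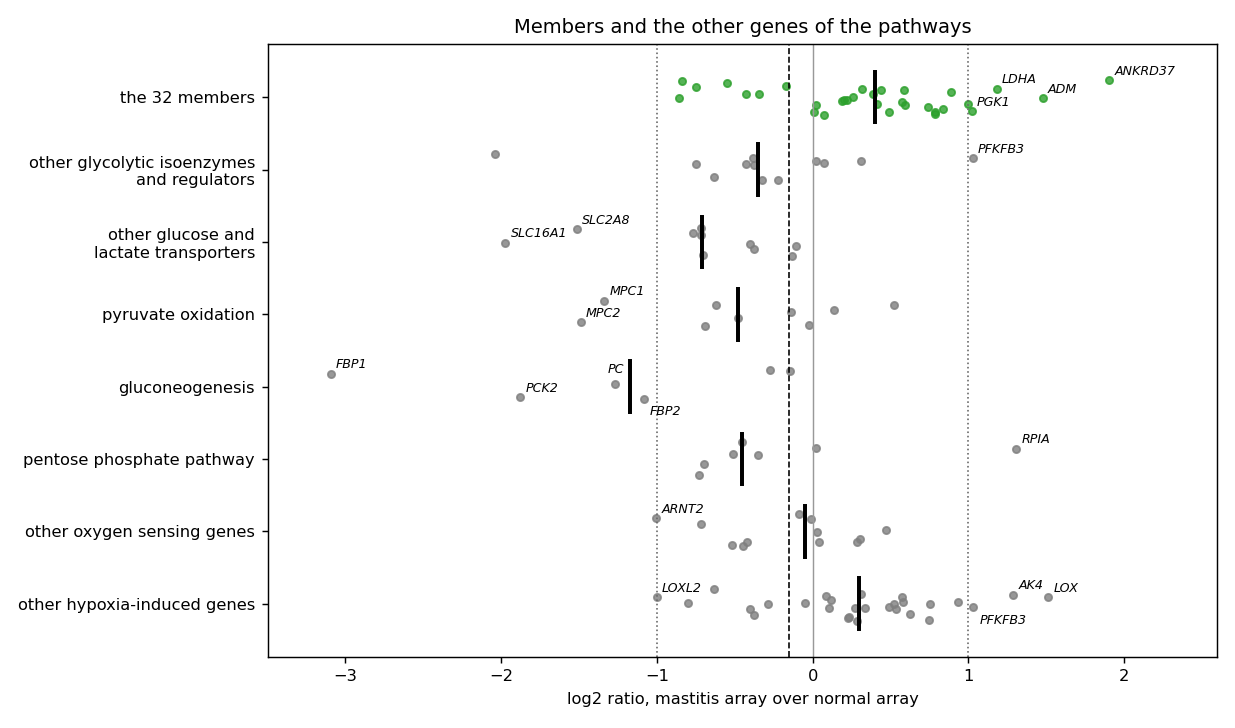
Log2 ratio of mastitis over normal (horizontal axis) for the 32 members (green, top) and of the measured genes of 7 other pathway lists (grey), spread vertically for legibility. Black bars show list medians. A dashed line marks the all-gene median (-0.15) and dotted lines 2-fold, with most genes past them named. The medians run from 0.40 for the members and 0.30 for other hypoxia-induced genes down to -1.18 for gluconeogenesis, and PFKFB3 appears in both of its lists.

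Markers of the cells that mammary tissue can hold also differed between the arrays, and their part in the values of the members was not tested. As background for the counts below, the shares past 2-fold over the whole array were 9.14% (lower) and 2.26% (higher). A single gene past 2-fold in lists this short says little about a cell type. Of 6 milk protein genes of the secretory epithelium measured on both arrays, all 6 were at least 2-fold lower in mastitis, and the summed scaled signal of the list was 183 in mastitis and 10465 in normal tissue. LALBA, a defining gene of that list, was not clearly above background on the mastitis array. Other luminal markers had a median of 0.12, with 2 of 9 at least 2-fold lower and a summed scaled signal of 196 against 328. Neutrophil markers were at least 2-fold lower in 7 of 9 measured genes, with a sum of 31.2 against 84.4, and CXCR2 and MPO were not clearly above background on either array. Macrophage markers had a median of 0.39 with 1 of 6 at least 2-fold higher (CD163), and a sum of 41.5 against 32.8. Erythroid markers were at least 2-fold higher in 2 of 4 measured genes (81.9 against 50.3), while SLC4A1 and HEMGN were not clearly above background on either array. Markers of endothelium, which lines the vessels that VEGFA and ADM act on, were within 2-fold in 8 of 8 (52.8 against 39.9), and so were T and NK cell markers in 8 of 8 (54.9 against 75.9). Most of the T and NK cell sum came from 1 CD4 probe (net signals 7704 and 7532). The median log2 ratio of that list was 0.03, with 5 of 8 genes above 0 (38.6% of all genes). Most of the adipocyte sum came from FABP4 (log2 ratio 0.12), the only measured gene of its list within 2-fold. Adipocyte markers were at least 2-fold lower in 3 of 4 (63.5 against 64.7), myoepithelial markers in 1 of 7 (139 against 136) and fibroblast markers in 1 of 7, with 1 of 7 at least 2-fold higher (276 against 219). Of 9 markers of skeletal muscle, which expresses ALDOA, PFKM and LDHA strongly, 3 were measured and within 2-fold, with a sum of 3.19 against 4.50. CKM, the muscle creatine kinase, had no probe measured in mastitis, where the brightest read 14 and was not found by the scanner software, and read 170 in normal tissue, which makes it at least 19.9-fold lower, while MYH1, MYH2 and TNNT1 were not clearly above background on either array.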

How the data were processed

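For each array the authors deposited the Cy3 intensity of every spot, its local background and a net value from which the negative controls' mean had been taken off, without scaling. The percent of saturated pixels and a flag score were deposited for each spot as well. The file headers name GenePix Pro 6.1 and Agilent design 023647, whereas Agilent Feature Extraction stands in the submitters' processing notes and an Affymetrix chip in the methods. RNA was extracted with miRNeasy according to the labels and with Trizol according to the methods. How the authors made the deposited log2 table is not given in the sources used here. Its medians were 4.34 (mastitis) and 4.29 (normal), its scale and direction were settled against the scanner signal, and its values followed the probe next in the sorted list (Spearman 1.00 against 0.10 in the same row on the mastitis array), so it served as an alternative with rows moved by 1.

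Both arrays share a slide and a scan. Control spots were left out and spots of a probe averaged. A probe was well above background when its net signal exceeded the mean of 153 negative controls by 2.6 SD (7.10 for mastitis, 8.74 for normal) and its spots had not mostly been flagged as not found, which held for 70.2% and 67.0% of probes. Names came from a RefSeq table of ARS-UCD2.0, used for names only: 26743 probes matched by accession, 864 by gene number, 5635 by symbol and 141 by synonym, 1134 kept the file's name and 9136 had no gene. The members and gene lists were chosen with earlier results of these data known, so their counts are descriptions. Members at least 2-fold apart or with disagreeing probes, isoenzyme groups, and up to 4 genes past 2-fold per further list were named; further genes (such as HMOX1, EPAS1, SLC2A1, GAPDHS and PDK2 to PDK4) were chosen after their values were seen. Of the list of other glycolysis genes, 1 past 2-fold is counted but not reported here. Alternatives were normexp (limma 3.58.1, R 4.3.3, offset 50, local background), quantile normalization, 4 other scalings, the deposited table, 3 other filters, saturated probes left out, 3 other probe rules and 2 other fold limits. Simulated arrays were used to test the script. Python 3.11.15, numpy 2.4.6, pandas 2.3.3 and matplotlib 3.10.9 were used.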

Additional observations from a re-analysis of the deposited data

How the results depend on the processing

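Of 443 values of single members under 14 alternative settings, 406 moved by less than the pooled SD over probes (0.45) and 37 by more, 32 of them without scaling and 5 under other settings (SLC16A3 in 2, PDK1 and ANKRD37 with normexp, and P4HA1 without the filter on dim probes). Settings that only rescale an array shift all members by the same amount, and so move all of them or none. Keeping flagged spots or leaving out saturated probes changed no member value. The count of 406 is therefore no measure of how robust single members are. Of the 32 members, 25 kept their sign under every setting run, and PFKL, PFKM, ENO2, EGLN1, EGLN3, CA9 and VEGFA changed it under at least 1. Of these, PFKM, CA9 and VEGFA changed sign only without scaling, a setting that shifts all members by the same amount. What lies behind the other sign changes was not tested.

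The median of the members, 0.40, was 0.67 with spike-in scaling, 1.12 without scaling and 0.57 with the deposited table. The count of members at least 2-fold higher, 4, was 2 with normexp, 7 with quantile normalization (3.56% of all genes) or the brightest probe (2.89%), 8 with the deposited table (3.72%), 10 with spike-in scaling and 18 without scaling. It was 12 at a 1.5-fold limit and 1 at a 3-fold limit (0.547%). The count at least 2-fold lower, 0, was 1 without the filter on dim probes (LDHB; 23.8% of all genes), 1 with the brightest probe (ALDOC; 9.34%) and 3 at a 1.5-fold limit. The median of the glycolytic enzymes, 0.29, was 0.50 with quantile normalization, 0.55 with spike-in scaling, 1.003 without scaling and 0.51 with the deposited table. The median of the hypoxia-induced members, 0.58, was 0.41 with normexp or without the filter on dim probes, 0.76 with quantile normalization, 0.84 with spike-in scaling, 1.29 without scaling and 0.78 with the deposited table. The other pathway genes, 4 at least 2-fold higher and 11 lower, numbered 1 and 6 with normexp, 7 higher with spike-in scaling, 21 and 4 without scaling, 26 lower without the filter on dim probes (23.8% of all genes), and 1 higher at a net signal of at least 50 (2.37% of all genes). These counts of other pathway genes were added after the data were seen. No paired analysis was possible because each group has 1 array.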
